A study of Mus musculus with 36 samples.

Results

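The heart apex of mice labelled cK15, in which Klf15 is knocked out, was compared with that of control mice at 4 am. Each genotype had 3 libraries at this time, so the comparison used 6 of the 36 libraries of a series that sampled both genotypes at 6 times of day, and it covered every gene with enough signal. Control animals bore the alpha-MHC cre transgene, whose promoter is active in heart muscle cells. The sources used here do not say whether cK15 animals bore it too. All samples are labelled with the strain C57BL/6, and the growth protocol names C57BL/6J males of 11 to 12 weeks housed with 12 h of light and 12 h of darkness. When the lights went on is not stated, so 4 am is used only as the labels give it. Libraries are named by the replicate numbers in their titles, which are 1, 3 and 4 for cK15 and 2, 3 and 4 for control.

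Klf15 encodes a zinc-finger transcription factor of the Kruppel-like family, whose members bind GC-rich and CACCC-type DNA. In heart and skeletal muscle and in liver it is known for driving genes of lipid use and of amino acid breakdown, the branched-chain amino acids (leucine, isoleucine and valine) above all. Its own RNA follows the circadian clock and responds to glucocorticoids, and in the heart it is also known as a restraint on hypertrophy.

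Values are FPKM, fragments scaled by gene length and by the size of the library. Fold changes are differences of mean log2(FPKM + 1), cK15 minus control, a scale on which weakly expressed genes show too small a change. A gene is called here when limma, a linear model fitted over all 36 libraries and 10600 genes, gave an adjusted p under 0.05. The labels do not say that the libraries within a group came from different animals, and p-values then measure only the spread between these samples, which may be technical. The tissue was measured in bulk, so fewer cells of a type and less RNA per cell cannot be told apart.

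The FPKM of a 4 am library summed to between 573760 and 691583, and low values stepped by whole fragments in 4 of the 6, from which a depth of about 2400000 to 3600000 fragments per library was estimated. In the other 2, cK15 replicate 1 and control replicate 2, the steps were blurred and the same estimate gave 2400000 and 3900000. Each cK15 estimate (2400000 to 2700000) lay below each control estimate (3100000 to 3900000), so that 1 fragment was worth more FPKM in cK15; this bears on Klf15, Cth, Acot1 and Adig, which were listed at 0 in some or all cK15 libraries. These 2 libraries also stood apart in composition. The share of FPKM held by their 10 top genes was 16.2% to 16.8%, compared with 22.7% to 25% in the other 4, and 12 of the 36 libraries of the series, 1 in every group, did the same. In both genotypes the pair differed from its group with gene length, with a median log2 gap of -0.094 for short and 0.102 for long genes in cK15 (the lowest and highest quartile of length), and of -0.028 and 0.151 in control. Counts of called genes are therefore given with and without the 12.

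Klf15 itself (chromosome 6, 90461043 to 90491803, GRCm38) was listed at 0 in all 3 cK15 libraries. The control libraries held 1.66, 1.30 and 0.41 FPKM in replicates 2, 3 and 4. One fragment was worth about 0.09 to 0.15 FPKM for this gene, so every control value rested on few fragments. The genotypes did not overlap, as the labels imply, and limma gave an adjusted p of 0.0185; no fold is given against libraries at 0. That call was lost without cK15 replicate 1, 3 or 4 or without control replicate 2 or 3 (limma adjusted p up to 0.201), and without the 12 libraries that stood apart (limma adjusted p 0.266). Klf15 aside, none of the 106 tested genes within 10 Mb of it was called by limma at 4 am (4 at an unadjusted p under 0.05). Of all 10600 tested genes 1.13% were called, and 544 lower and 288 higher genes had an unadjusted p under 0.05. The lack of calls near Klf15 therefore says little about this region.

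At 4 am 120 of 10600 genes were called (1.13%), 103 lower in cK15 (0.972%) and 17 higher (0.16%). At an unadjusted p under 0.05 there were 544 lower and 288 higher genes, and the median log2 fold change of all tested genes was -0.005. At least 2-fold differences on this scale were found for 50 lower genes and for 2 higher genes, Pigh and Erdr1. These counts include Klf15 and Erdr1, each listed at 0 in all libraries of 1 genotype. The size of their difference depends on the 1 FPKM that the scale adds. In each of the 120 the 3 cK15 libraries lay entirely to one side of the 3 control libraries, as they did for 738 tested genes in the lower and 446 in the higher direction. Without the 12 libraries that stood apart, 102 genes were called, 88 lower and 14 higher, and 80 of the 120 were among them. Restricting the fit to the 6 libraries of 4 am gave 57 calls, 55 lower and 2 higher, with 54 of the 120 among them, and a term for the library set gave 231, 178 lower and 53 higher, with all 120 among them. Of the 120, 64 stayed called whichever 1 of the 6 libraries was left out, 62 lower and 2 higher.

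**Figure D1:**
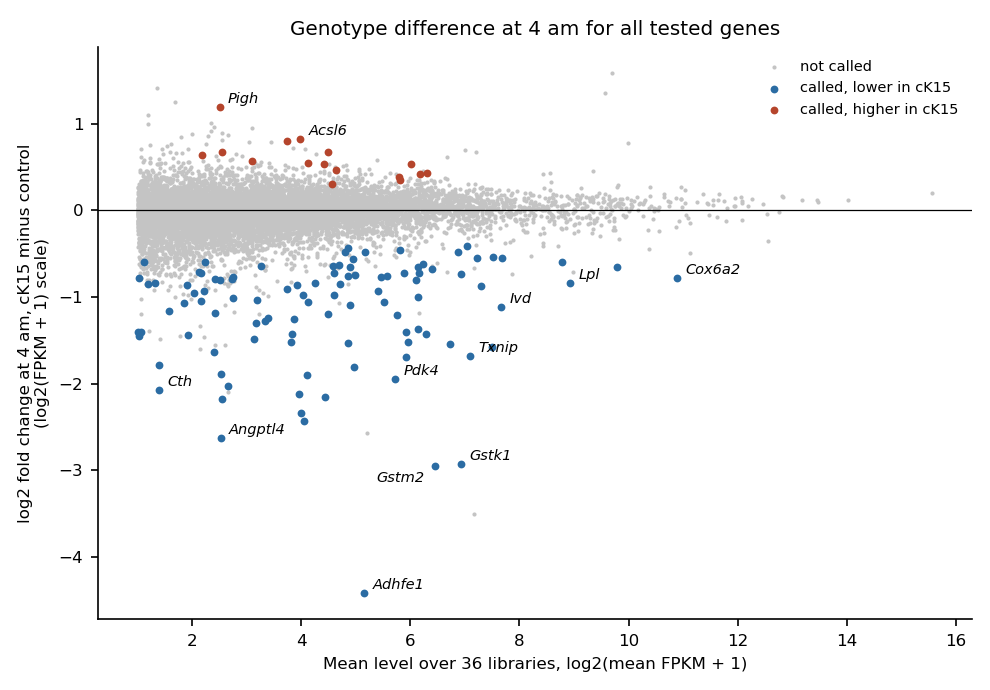
Each point is a tested gene, placed by its level over the 36 libraries (horizontal axis, log2 of mean FPKM + 1) and by its log2 fold change at 4 am, cK15 minus control (vertical axis). Blue and red points are genes called lower and higher, grey points were not called, and genes with all 3 libraries of a genotype at 0 are not drawn. Called genes lie mostly below the zero line, down to Adhfe1 at -4.42.

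The lowest fold change among the calls was that of Adhfe1, a mitochondrial transhydrogenase of hydroxyacids. Adhfe1 was at 2.0, 2.17 and 2.44 FPKM in cK15 and at 78.2, 68.8 and 56.9 FPKM in control (chromosome 1, 9547948 to 9577970). Its groups stood far apart, with a log2 fold change of -4.42 (SE 0.20; limma adjusted p = 4.57e-16). The lncRNA 2610203C22Rik, which overlaps Adhfe1 on the opposite strand, was at 1.05 to 2.08 FPKM in cK15 and 8.82 to 11.7 FPKM in control (log2 fold change -2.17, SE 0.20). The library kit keeps strand, but the sources used here do not say whether the counting used it, so reads of this pair cannot be told apart with certainty.

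The glutathione transferases came next. Gstm2, a cytosolic enzyme of the mu class, was at 18.6, 17.6 and 19.8 FPKM in cK15 against 140, 136 and 179 FPKM in control (chromosome 3, 107981702 to 107986420). Gstk1, the kappa-class enzyme of mitochondria and peroxisomes, was at 21.6, 33.2 and 32.8 FPKM in cK15 against 202, 234 and 240 FPKM in control (chromosome 6, 42245935 to 42250441). Both fell by nearly the same amount, with log2 fold changes of -2.95 (SE 0.13) and -2.93 (SE 0.14), and no library of one genotype reached the values of the other. Gstm7 fell by 1.81 and Gstm1 by 0.55 on the log2 scale. Mu-class genes are close copies, so their values are uncertain where reads were shared between them. Of the 33 tested genes in the list of glutathione transferases and antioxidant enzymes these 4 were lower and none was higher, and the list's median fold change of -0.07 was near that of all genes. Of all tested genes 0.972% were called lower.

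**Figure D2:**
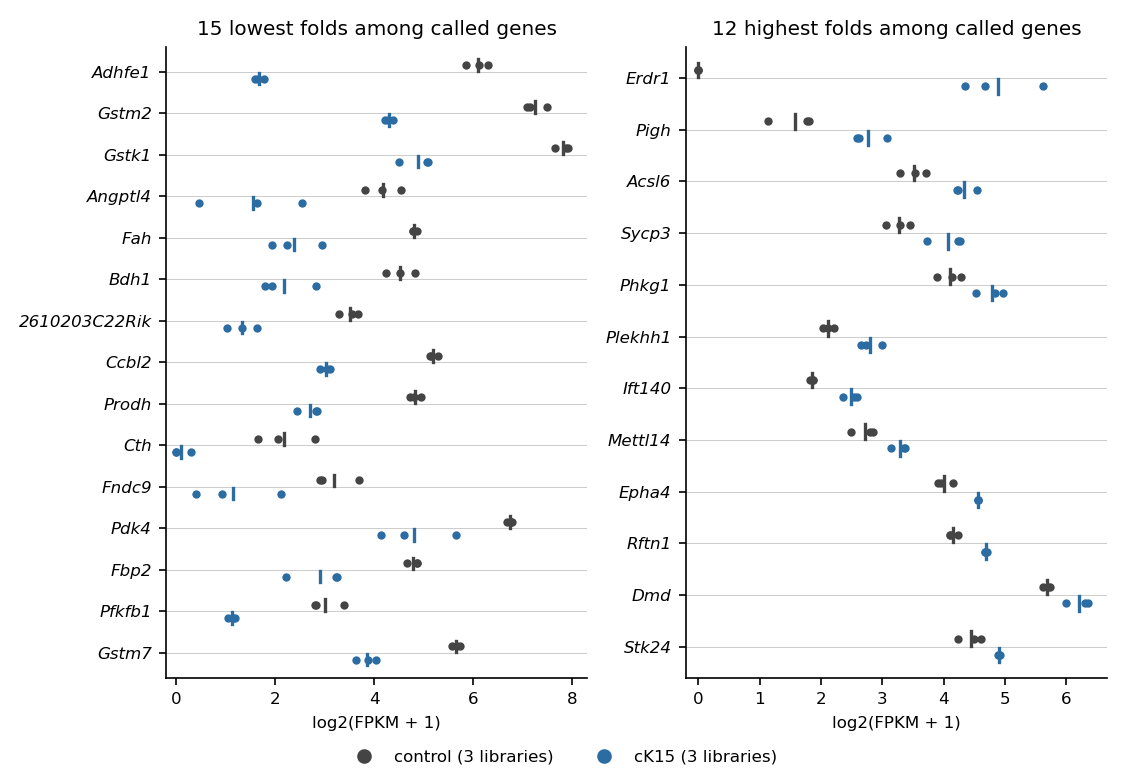
Levels in each 4 am library, as log2(FPKM + 1), for the 15 called genes with the lowest and the 12 with the highest fold change. Grey points are the 3 control and blue points the 3 cK15 libraries, with the mean as a short bar. The genotypes separate in every gene shown, by much more in the left panel than in the right one apart from Erdr1, which was at 0 in all 3 control libraries.

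Promoter sequence is shown for 3 of the lowest genes and 2 of the branched-chain genes described further on, because Kruppel-like factors bind CACCC-type and GC-rich sequence and the windows differ in how much of it they hold. The windows run from 250 bases before to 50 bases after the start of the gene on its own strand, from RefSeq on GRCm38.p6. They are chr3:107986371-107986670 (minus strand) for Gstm2, chr6:42245685-42245984 (plus) for Gstk1, chr7:84605893-84606192 (minus) for Fah, chr2:118861744-118862043 (plus) for Ivd and chr9:83924887-83925186 (plus) for Bckdhb. Capitals mark CACCC or CCGCCC read on either strand, so GGGTG and GGGCGG are in capitals too, and marks of both kinds can overlap.
Gstm2: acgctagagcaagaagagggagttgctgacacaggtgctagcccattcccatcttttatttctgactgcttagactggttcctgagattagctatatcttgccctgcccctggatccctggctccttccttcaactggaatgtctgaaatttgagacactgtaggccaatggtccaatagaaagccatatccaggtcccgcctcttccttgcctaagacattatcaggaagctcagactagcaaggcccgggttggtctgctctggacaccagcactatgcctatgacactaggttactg
Gstk1: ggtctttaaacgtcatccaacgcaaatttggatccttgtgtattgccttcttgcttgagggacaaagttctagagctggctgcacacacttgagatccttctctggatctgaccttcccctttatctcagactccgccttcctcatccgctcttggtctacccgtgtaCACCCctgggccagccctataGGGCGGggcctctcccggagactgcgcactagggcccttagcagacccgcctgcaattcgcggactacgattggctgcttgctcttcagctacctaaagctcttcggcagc
Fah: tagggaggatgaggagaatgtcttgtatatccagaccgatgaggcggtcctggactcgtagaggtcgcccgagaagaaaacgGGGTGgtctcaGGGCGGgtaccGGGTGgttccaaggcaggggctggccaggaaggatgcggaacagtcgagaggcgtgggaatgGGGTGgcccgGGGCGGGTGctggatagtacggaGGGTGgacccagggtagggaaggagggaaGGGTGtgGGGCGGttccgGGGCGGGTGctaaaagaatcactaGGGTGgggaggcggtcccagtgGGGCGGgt
Ivd: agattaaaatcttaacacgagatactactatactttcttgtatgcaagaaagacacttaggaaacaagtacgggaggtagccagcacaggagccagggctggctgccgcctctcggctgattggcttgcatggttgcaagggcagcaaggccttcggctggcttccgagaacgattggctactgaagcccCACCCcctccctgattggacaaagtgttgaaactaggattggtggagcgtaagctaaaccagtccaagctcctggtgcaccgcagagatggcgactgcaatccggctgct
Bckdhb: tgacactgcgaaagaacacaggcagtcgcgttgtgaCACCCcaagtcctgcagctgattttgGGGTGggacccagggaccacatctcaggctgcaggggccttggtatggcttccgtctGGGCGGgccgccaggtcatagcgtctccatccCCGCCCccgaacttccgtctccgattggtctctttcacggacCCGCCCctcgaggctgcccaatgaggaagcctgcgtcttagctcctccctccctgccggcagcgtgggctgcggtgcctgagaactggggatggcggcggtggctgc
Gstm2 had neither run of letters in its window. Gstk1 had 1 of each, Ivd had 1 CACCC, Bckdhb had 2 CACCC and 3 CCGCCC, and Fah had 8 CACCC and 5 CCGCCC. The windows of Bdh1, with neither run, and of Bcat2, with 1 CACCC and no CCGCCC, are not printed. The letters CACCC were present in 58 of the 78 lower genes with a window in the table (74.4%), in 9 of 14 higher genes (64.3%) and in 62.3% of the 8456 tested genes with one. For CCGCCC the shares were 53.8%, 71.4% and 64.7%. At least 1 of both was found in 85.9% of lower, 85.7% of higher and 85.1% of all tested genes. Of 9 lower branched-chain genes with a window 8 held CACCC (88.9%) and 3 held CCGCCC (33.3%), and none of these shares was tested. The lower genes had a median GC content of 57.8% against 61.0% for all tested genes. A match is a description of the letters only and no binding was measured.

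In branched-chain amino acid breakdown 12 of 24 tested genes were called lower, none was called higher and 12 were not called. Below 0 lay 17 and above it 7, and the median log2 fold change was -0.50 against -0.005 for all genes, where 0.972% were called lower. The list had 14 lower calls without the 12 libraries that stood apart, and 8 to 11 with any 1 of the 6 libraries left out. Such a count describes the list, whose members were chosen with results of these data known.

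The pathway starts with Bcat2, the mitochondrial aminotransferase that removes the amino group. Bcat2 was at 30.5, 30.9 and 31.3 FPKM in cK15 against 72.3, 68.4 and 78.1 FPKM in control, and the 3 cK15 libraries hardly differed from each other (log2 fold change -1.21, SE 0.11; limma adjusted p = 8.57e-09). The dehydrogenase complex that follows, the committed step, was lower in its E1 and E2 subunits. Bckdhb, the E1 beta subunit, was at 35.4, 28.0 and 31.9 FPKM in cK15 against 94.9, 85.8 and 97.6 FPKM in control (log2 fold change -1.52, SE 0.14). Bckdha, the E1 alpha subunit, was at 106 to 118 FPKM against 193 to 222 FPKM (-0.87, SE 0.11). Dbt, the E2 subunit, was at 12.5 to 13.2 FPKM against 27.4 to 34.9 FPKM (-1.20, SE 0.13). Dld, the E3 subunit that this complex shares with pyruvate and oxoglutarate dehydrogenase, did not pass the threshold (log2 fold change 0.19, limma adjusted p 0.616).

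The 2 enzymes that set the activity of the complex were not called. Bckdk, the kinase that inactivates it, was at 82.1, 71.2 and 73.3 FPKM in cK15 and 83.6, 66.9 and 69.2 FPKM in control, with the genotypes overlapping. Ppm1k, the phosphatase that activates it, was at 12.5, 12.2 and 10.5 FPKM in cK15 and 25.5, 17.3 and 17.2 FPKM in control. Its groups did not overlap, yet its difference of -0.71 (SE 0.23) missed the threshold (limma adjusted p 0.208).

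Further down, the steps differed from enzyme to enzyme. In the leucine branch Ivd, isovaleryl-CoA dehydrogenase, was at 140, 124 and 132 FPKM in cK15 against 296, 276 and 292 FPKM in control (chromosome 2, 118861959 to 118882909; log2 fold change -1.12, SE 0.08; limma adjusted p = 2.99e-11). Mccc2 and Mccc1, the subunits of the next carboxylase, changed by -0.81 (SE 0.10) and -0.48 (SE 0.11). The hydratase Auh, which follows them, did not pass (0.08). In the valine branch Aldh6a1, which oxidises methylmalonate semialdehyde, was at 37.6, 32.1 and 29.0 FPKM against 105, 79.2 and 81.9 FPKM (-1.40, SE 0.21), and Abat, a transaminase listed with this branch, was at 0.84 to 1.38 FPKM against 3.73 to 5.52 FPKM (-1.44, SE 0.18). Acad8, Hibch and Hibadh, which act between the dehydrogenase complex and Aldh6a1, lay at 0.12, 0.03 and -0.06, each with overlapping genotypes. Hsd17b10 of the isoleucine branch was lower by -0.55 (SE 0.11), and Acadsb lay at -0.52 but missed the threshold (limma adjusted p 0.0705).

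At the shared end, the propionyl-CoA carboxylase subunit Pcca (-0.46, SE 0.11) and the mutase Mut (-0.72, SE 0.18) were lower, while the partner subunit Pccb (-0.24) and the epimerase Mcee (0.02) did not pass. The carrier Slc25a44, which brings branched-chain amino acids into mitochondria, was near 1 FPKM in both genotypes and was not called. Single libraries decided 4 of these calls. The Hsd17b10 call was lost without replicate 4 of either genotype (limma adjusted p up to 0.0741), that of Mccc1 without cK15 replicate 3 or 4 or control replicate 4 (up to 0.176), and that of Pcca without cK15 replicate 1 or 4 or control replicate 3 or 4 (up to 0.106). For Mut every single omission except that of cK15 replicate 1 lost it (up to 0.196).

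**Figure D3:**
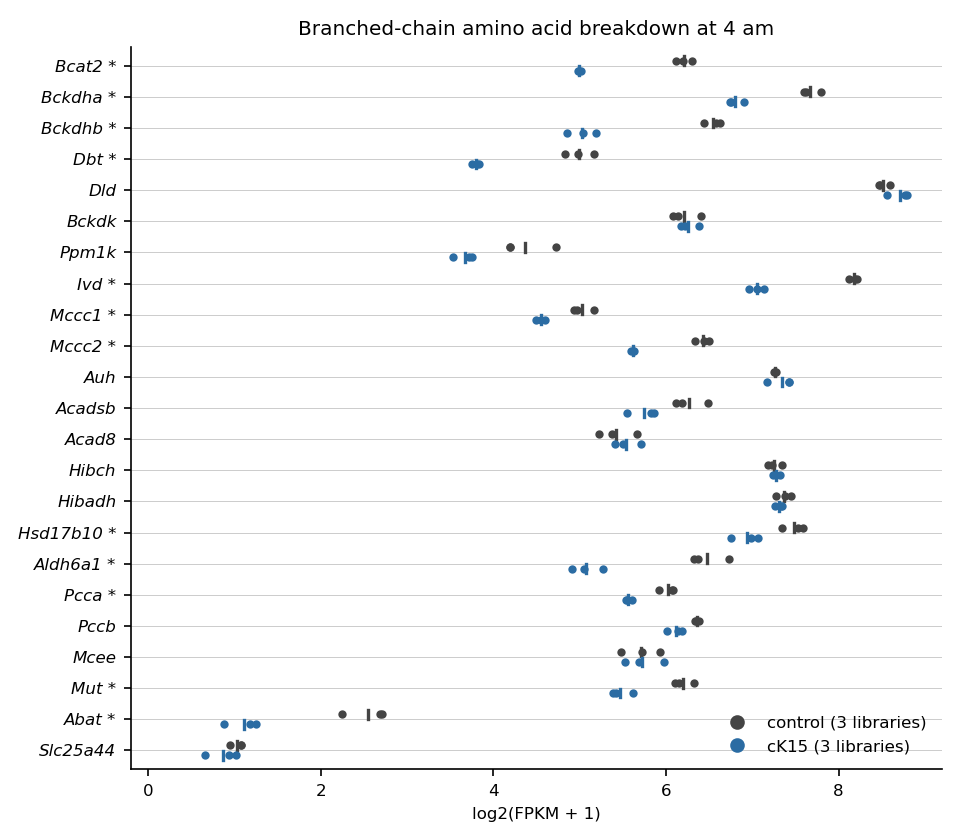
Levels in each 4 am library, as log2(FPKM + 1), of tested genes of branched-chain amino acid breakdown, from the first step at the top downwards. Grey points are control and blue points cK15 libraries, short bars are means, and an asterisk marks a called gene. Bcat2, Bckdha, Bckdhb, Dbt and Ivd separate clearly, whereas Bckdk, Hibch and Hibadh overlap.

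Of 27 tested genes for other amino acids and for sulfur 10 were called lower, none higher and 17 not, where 0.972% of all genes were called lower. The median fold change was -0.23 with 7 of the 27 above 0, and leaving out any 1 library kept 10 or 11 lower calls. Fah, the last enzyme of tyrosine breakdown, was at 2.84, 3.73 and 6.74 FPKM in cK15 against 26.5, 26.6 and 28.2 FPKM in control (chromosome 7, 84585159 to 84605942). All control libraries lay close together, far above the more scattered cK15 libraries (log2 fold change -2.43, SE 0.26; limma adjusted p = 1.38e-07). Ccbl2, a kynurenine aminotransferase, was at 6.51 to 7.68 FPKM against 33.8 to 38.0 FPKM (-2.16, SE 0.11). Cth, the cystathionine lyase that yields cysteine, was listed at 0 in cK15 replicates 1 and 4 and was at 0.23 FPKM in replicate 3, about the worth of 1 fragment, against 6.02, 2.16 and 3.17 FPKM in control.

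Both mitochondrial steps of proline breakdown were lower. Prodh, proline dehydrogenase, was at 4.45, 6.08 and 6.24 FPKM in cK15 against 29.8, 25.4 and 27.1 FPKM in control, with a wide gap between the groups (log2 fold change -2.12, SE 0.18; limma adjusted p = 2.65e-09). Aldh4a1, which takes the next step, changed by -0.75 (SE 0.11). Oat, ornithine aminotransferase, which feeds the same intermediate, was at 91.3 to 94.8 FPKM against 153 to 160 FPKM (-0.73, SE 0.07), a small difference beside an even smaller spread. The remaining calls of the list were Gcdh of lysine and tryptophan breakdown (-0.93), Gcat of threonine breakdown (-1.30), the alanine aminotransferase Gpt (-1.09) and the sulfurtransferase Tst (-1.40); these 4 and Aldh4a1 are named beyond the naming rule, after their values were seen.

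Ketone and hydroxyacid enzymes had a median fold change of -0.35, against -0.005 for all genes. Among their 10 tested genes 3 were called lower, against 0.972% of all genes. Beside Adhfe1 these were Bdh1, which interconverts the 2 main ketone bodies, and the D-lactate dehydrogenase Ldhd. Bdh1 was at 6.05, 2.82 and 2.46 FPKM in cK15 against 27.2, 17.8 and 22 FPKM in control (log2 fold change -2.34, SE 0.41; limma adjusted p = 0.00063). Oxct1, the transferase that starts ketone use in the heart, was at 821 to 951 FPKM in cK15 and 809 to 952 FPKM in control, with the genotypes overlapping. Ldhd changed by -0.65 (SE 0.14), a call lost without cK15 replicate 3 or control replicate 2 or 4 (limma adjusted p up to 0.141).

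Lpl and Angptl4, which encode a lipase that frees fatty acids from blood lipids and an inhibitor of it, both had less RNA in cK15. Lpl, lipoprotein lipase, was at 346, 351 and 320 FPKM in cK15 against 627, 615 and 581 FPKM in control (chromosome 8, 68880555 to 68906932; log2 fold change -0.84, SE 0.11; limma adjusted p = 4.15e-06). Angptl4, which inactivates that lipase, was at 2.10, 4.80 and 0.38 FPKM against 13.2, 17.0 and 22.2 FPKM. Its cK15 libraries varied widely but remained below control (-2.63, SE 0.45; limma adjusted p = 0.000592). Among the 14 tested genes for uptake and activation 2 were lower and 1, the acyl-CoA synthetase Acsl6, was higher. Of all tested genes 0.972% were called lower and 0.16% higher. The fatty acid transporter Cd36 was at 1131 to 1445 FPKM in cK15 and 1254 to 1952 FPKM in control and was not called.

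In fatty acid oxidation 6 of 29 tested genes were called lower and none higher, and 26 lay below 0, with a median of -0.30. Of all tested genes 0.972% were called lower, and their median was -0.005. The list reaches beyond oxidation enzymes, with Pdk4, Ucp3 and Acot1 among its calls. Without the 12 libraries that stood apart 4 were lower and the median was -0.20, and 12 were lower when the fit held a library-set term. Pdk4, the kinase that restrains pyruvate oxidation, was at 23.3, 49.7 and 16.6 FPKM in cK15 against 109, 108 and 103 FPKM in control. The control libraries agreed closely and the cK15 libraries did not (log2 fold change -1.95, SE 0.29; limma adjusted p = 8.05e-05). Echs1, the hydratase of the oxidation spiral, was at 325, 344 and 399 FPKM against 519, 537 and 549 FPKM (-0.59, SE 0.11). Ucp3, an inner-membrane carrier of muscle, was at 3.32 to 3.82 FPKM against 8.83 to 14.4 FPKM (-1.49, SE 0.31), and the carnitine carrier Slc25a20 changed by -0.53 (SE 0.11).

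Acot1, an acyl-CoA thioesterase with the close copy Acot2, was at 0, 0.27 and 0.24 FPKM against 2.56, 2.71 and 1.45 FPKM, which is few fragments in cK15. The Ucp3 call was lost without control replicate 3 (limma adjusted p 0.0589), and that of Slc25a20 without cK15 replicate 1 or control replicate 2 (up to 0.0871) and without the 12 libraries that stood apart (0.241). Cpt1b, the muscle gate for entry of long-chain fat into mitochondria, was at 537 to 622 FPKM in cK15 and 530 to 641 FPKM in control, with overlap. In peroxisomes, which shorten very long fatty acids, the bifunctional enzyme Ehhadh was at 2.45, 1.86 and 2.21 FPKM against 4.96, 5.59 and 4.55 FPKM (-0.93, SE 0.16; limma adjusted p = 0.000593). It did not pass when only the 6 libraries of 4 am were fitted (limma adjusted p = 0.0532). That fit kept 54 of the 120 calls. Among those it lost were also Echs1, Aldh4a1 and Gstm1 (limma adjusted p 0.0872, 0.078 and 0.0926).

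None of the 15 tested regulators of these pathways in the list of PPAR, PGC-1 and ERR factors was called by limma, and none had an unadjusted p under 0.05. With 1.13% of all genes called, a list of this size would mostly hold no call. Ppara, the receptor that drives fat oxidation genes, was at 4.74, 3.90 and 5.12 FPKM in cK15 and 4.69, 4.34 and 4.56 FPKM in control. Ppargc1a, its coactivator, was at 19.7 to 21.5 FPKM and 19.3 to 23.0 FPKM. In lipid storage 2 of 15 tested genes were called lower, against 0.972% of all genes. They were the droplet coat protein Plin2 (-0.48, SE 0.11) and the acyltransferase Gpam (-0.48, SE 0.11). Both calls were lost without the 12 libraries that stood apart (limma adjusted p 0.159 and 0.0688), without cK15 replicate 4 and without control replicate 2; Plin2 was lost also without cK15 replicate 1 or control replicate 4 (up to 0.114), and Gpam without cK15 replicate 3 (up to 0.195).

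The lists of glucose use and of glycogen metabolism held 1 call each, where 1.13% of all genes were called. Of 29 tested genes for glucose uptake, glycolysis and pyruvate oxidation, 1 was called. It was Pfkfb1, which sets the level of an allosteric activator of glycolysis, at 1.06, 1.22 and 1.27 FPKM in cK15 against 5.97, 9.56 and 6.11 FPKM in control (log2 fold change -1.89, SE 0.28; limma adjusted p = 8.74e-05). Fbp2, the muscle fructose bisphosphatase, was at 3.65, 8.39 and 8.48 FPKM against 24.3, 28.1 and 28.1 FPKM (-1.90, SE 0.27). Txnip, an inhibitor of thioredoxin and of glucose uptake that is itself induced by glucose, was at 96.5, 60.1 and 61.5 FPKM against 246, 214 and 231 FPKM (-1.68, SE 0.28; limma adjusted p = 0.00036). The lncRNA Gm15441 lies opposite Txnip and changed by -1.57 (SE 0.30), with the same doubt about strand; both were named after their values were seen. In glycogen metabolism the phosphorylase kinase subunit Phkg1 was higher, at 22, 30.4 and 27.7 FPKM against 13.8, 18.4 and 16.7 FPKM (0.68, SE 0.17).

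Beside these groups, the lists of oxidative phosphorylation, ion channels and calcium handling, heat shock and creatine held 1 call each. Of all genes 1.13% were called. Cox6a2, the heart and muscle isoform of a cytochrome oxidase subunit, was at 1535, 1442 and 1272 FPKM in cK15 against 2982, 2027 and 2366 FPKM in control, and was the one called gene among 26 of oxidative phosphorylation (log2 fold change -0.78, SE 0.19; limma adjusted p = 0.0272). It was not called with quantile normalization (limma adjusted p 0.119) nor without cK15 replicate 3 or 4 or control replicate 2 or 4 (up to 0.25). The other 25 lay above 0 and were not called; with quantile normalization 4 of the 26 lay below 0. Kcnip2, an accessory subunit of Kv4 channels, was at 61.7, 48.6 and 47.2 FPKM against 91.7, 82.0 and 86.2 FPKM and was the one call among 22 channel and calcium genes (-0.72, SE 0.10; limma adjusted p = 2.04e-05). Single lower calls were also made for the chaperonin Hspe1 (-0.67, SE 0.12) and for creatine kinase B, Ckb (-0.56, SE 0.14), of which Ckb was lost without any 1 of the 6 libraries (limma adjusted p 0.0672 to 0.21).

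No gene was called by limma in the lists of the citric acid cycle (18 tested genes), the sarcomere (17), hypertrophy and the fetal programme (17), adrenergic signalling (14), insulin signalling (13), glucocorticoid response (17) or the extracellular matrix (19). At an unadjusted p under 0.05 these lists held 1, 2, 1, 2, 1, 2 and 0 genes, where all 10600 genes held 544 lower and 288 higher. With 1.13% of all genes called, lists of this size would mostly hold no call. Their lack of calls therefore says little about them. The natriuretic peptide Nppa, a marker of strained heart muscle, was at 238, 118 and 69.1 FPKM in cK15 and 77.1, 65.5 and 89.4 FPKM in control. Its cK15 libraries spread so widely that they enclosed 2 of the control values.

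The 17 tested genes of the circadian clock had 0 calls with limma, and none had an unadjusted p under 0.05. With 1.13% of all genes called, a list of this size would mostly hold no call. The median fold change of the clock genes was -0.03 and their range was -0.39 (Per3) to 0.40 (Arntl). Arntl, the core activator also called Bmal1, was at 19.1, 29.6 and 28.0 FPKM in cK15 and 18.5, 19.2 and 18.8 FPKM in control (log2 fold change 0.40, SE 0.25; limma adjusted p 0.843). Replicate 1 of cK15 lay among the control libraries, and the other 2 lay above them. Its partner Clock (0.04) and the paralog Npas2 (0.28), the repressors Per1 (-0.09), Per2 (-0.18), Cry1 (0.03) and Cry2 (0.13), and the nuclear receptors Nr1d1 (-0.16), Nr1d2 (-0.18) and Rora (0.15) did not pass. Nor did Bhlhe40 (0.16), Bhlhe41 (0.14) or the output factors Dbp (-0.05), Tef (-0.17) and Gm129 (-0.22).

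**Figure D4:**
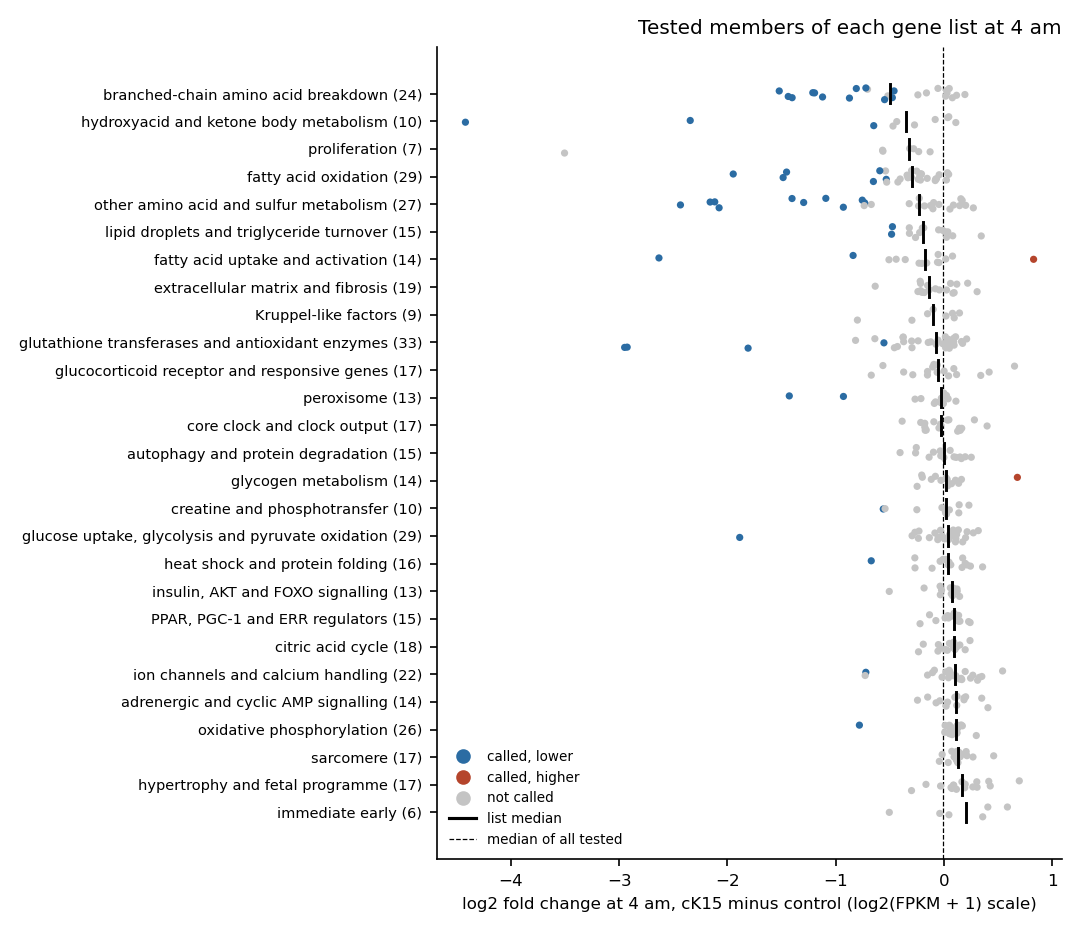
Log2 fold changes at 4 am of the tested members of each gene list, with the number tested in brackets. Blue and red points are called lower and higher, grey points were not called, the short black bar is the list median, and the dashed line is the median of all tested genes. Lists are ordered by median, from branched-chain amino acid breakdown (-0.50) at the top to the immediate early genes (0.20), and Klf15, at 0 in cK15, is not drawn.

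Fewer genes were called higher in cK15 than lower, 17 against 103. Erdr1, which comes from repeated sequence near the end of the X chromosome, was at 24.4, 48.2 and 19.4 FPKM in cK15 and listed at 0 in all 3 control libraries, so no fold is given (limma adjusted p = 0.00359). Pigh, of GPI anchor synthesis, was at 7.4, 5.02 and 5.13 FPKM against 2.49, 2.42 and 1.18 FPKM (log2 fold change 1.19, SE 0.27). Its neighbour Plekhh1, whose end overlaps Pigh on the opposite strand, changed by 0.68 (SE 0.16). Acsl6, which activates long-chain fatty acids, was at 17.7, 17.8 and 22.4 FPKM against 12.1, 8.73 and 10.6 FPKM (0.83, SE 0.17). The meiotic protein Sycp3 (0.81), the ciliary transport protein Ift140 (0.64), the RNA methyltransferase subunit Mettl14 (0.57), the ephrin receptor Epha4 (0.55), the membrane raft protein Rftn1 (0.54), dystrophin, Dmd (0.53), and the kinase Stk24 (0.46) completed the 12 highest.

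Of these 12, the calls of Erdr1 and Rftn1 did not depend on any 1 library. Pigh was lost without cK15 replicate 1 or control replicate 4 (limma adjusted p up to 0.176) and Acsl6 without cK15 replicate 4 or control replicate 3 (up to 0.082). The other 8 were each lost under 4 to 6 of the 6 omissions, with each of the 6 libraries deciding at least 1 of them (limma adjusted p up to 0.296). Phkg1 was lost as well with median-ratio rescaling (0.053) and without the 12 libraries that stood apart (0.113).

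Markers of other heart cells were measured beside these groups. Of 14 marker lists none had a gene called by limma, where 1.13% of all genes were called. At an unadjusted p under 0.05 the fibroblast list held 4 of 6 tested genes, the macrophage list 2 of 9, and 5 others 1 each. All 10600 tested genes held 544 lower and 288 higher at that threshold. The fibroblast markers summed to 1310 to 1373 FPKM in cK15 and 1553 to 1584 in control, and the 6 tested members all lay below 0 (median -0.26). The macrophage markers summed to 196 to 216 FPKM against 250 to 256, with all 9 below 0 (median -0.34). Endothelial markers summed to 339 to 381 FPKM against 359 to 397, and heart muscle markers to 52752 to 107365 FPKM against 51028 to 87320, in both cases with overlap. Of the adipocyte markers Plin1, Cidec, Lep and Ucp1 were at 0 in all 6 libraries, and so were the atrial Sln and the T cell marker Cd3e. The adipocyte list still summed to 937 to 1360 FPKM in cK15 and 1090 to 1918 in control, with overlap. Adipoq was under 0.5 FPKM in all 6 libraries, so nearly all of that sum was Fabp4. Fabp4, the only tested member of the list, lay at -0.44. The 4 tested RNAs of the list of nuclear retained RNA, whose level can move with RNA preparation, had a median of -0.60 with 3 below 0. They summed to 20.8 to 37.2 FPKM in cK15 and 29.6 to 52.4 in control, with overlap, and lay at -0.62 (Malat1), -0.67 (Neat1), -0.59 (Meg3) and 0.21 (Kcnq1ot1). Leaving out 1 library moved that median to between -0.82 (without cK15 replicate 1) and -0.29 (without cK15 replicate 3). Meg3 passed without cK15 replicate 1 (limma adjusted p 0.0464) and without the 12 libraries that stood apart (0.013), but not with all 36 libraries (0.251). What part the fibroblast, macrophage and nuclear RNA levels have in the gene groups above was not tested. Over all tested markers the lowest fold change was -1.02, in the skeletal muscle list.

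The same comparison in the 30 libraries of the other 5 times, which share no library with 4 am, gave 905 called genes (8.54%), 595 lower and 310 higher. Of the 120 called at 4 am, 112 were called there in the same direction, 97 lower and 15 higher, which is 93.3% of the 4 am calls and 12.4% of the calls at the other times. The estimate of spread behind the 4 am calls used all 36 libraries. Of the 120, 49 were also called at each of the other 5 times taken singly and 23 at none of them. The 8 not called over the other times were Ociad2, Ccl6, Stra13, Met, Tmem237, Plekha4, Rftn1 and Mettl14, some of them named after their values were seen.

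Whether a difference is particular to 4 am was tested by setting the 4 am difference against the mean of the other 5. No gene passed with limma (235 genes, or 2.22%, had an unadjusted p under 0.05), and the smallest adjusted p was 0.276 for Rftn1. Rftn1 was at 24.6, 25 and 24.5 FPKM in cK15 against 17.8, 16.3 and 16.2 FPKM in control at 4 am, while its fold change over the other times was -0.03. With a term for the library set 1 gene passed this test. Of the 4 am calls, 86 were further from 0 at 4 am than over the other times; the genes were chosen on the 4 am libraries, so a lean in that direction carries no support.

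Of the 120 calls, 20 had an unadjusted limma p under 0.05 for 4 am against the other times, and none of them passed after adjustment. All 20 lay further from 0 at 4 am. The 120 were chosen on the 4 am libraries, so this lean carries no support either. Values are given for 6 of the 20, chosen after they were seen. The fold change of Txnip was -1.68 at 4 am and -0.79, -0.51, -1.08, -0.49 and -0.53 at 12 am, 8 am, 12 pm, 4 pm and 8 pm. Prodh stood at -2.12 at 4 am and between -1.66 and -1.03 at the other times, and Angptl4 at -2.63 and between -2.34 and -1.13. Ociad2, an endosomal and mitochondrial protein at 2.54, 2.05 and 2.76 FPKM in cK15 against 8.0, 9.91 and 11.3 FPKM in control, stood at -1.63 at 4 am and between -0.69 and 0.16 elsewhere. The chemokine Ccl6 was at 6.74, 7.75 and 3.64 FPKM against 21.8, 16.3 and 9.53 FPKM and stood at -1.24 at 4 am and between -0.30 and 0.13 elsewhere. Its 4 am call (limma adjusted p 0.0369) was lost without cK15 replicate 1 or 4 or control replicate 2 or 3 (up to 0.308). It was lost also without the 12 libraries that stood apart (0.122). Adig, a small protein of fat cells at 0.76, 0 and 0 FPKM against 3.71, 4.30 and 1.87 FPKM, stood at -1.78 and between -1.14 and -0.07. By contrast Ivd ranged only from -1.38 to -1.10 and Lpl from -1.04 to -0.57 over all 6 times, with 4 am inside the range.

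**Figure D5:**
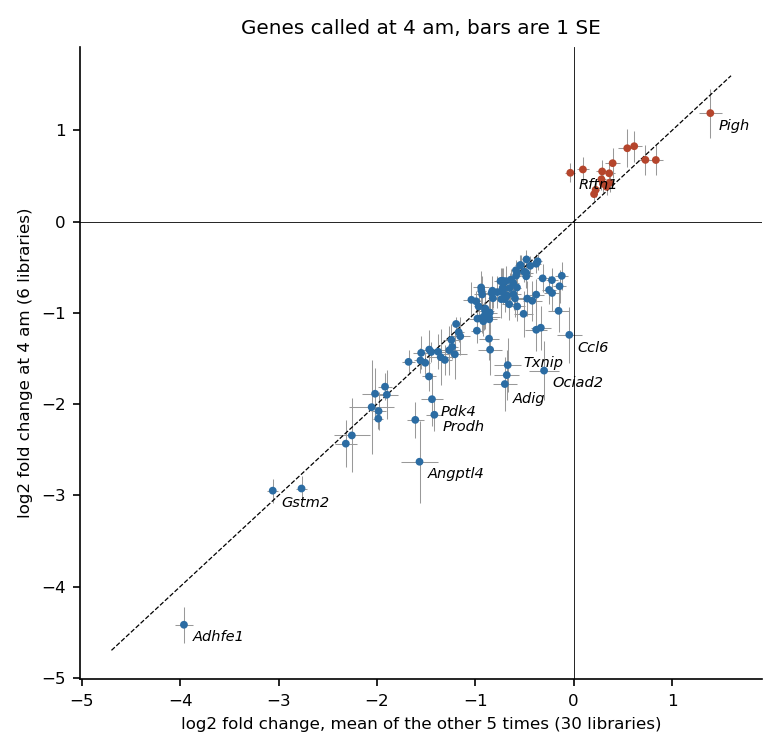
Log2 fold change at 4 am (vertical axis, 6 libraries) against the mean fold change over the other 5 times (horizontal axis, 30 libraries) for the genes called at 4 am. Bars are 1 SE, blue is lower and red higher in cK15, the dashed line marks equal values, and genes with a genotype at 0 are not drawn. Most genes follow the line, while Txnip, Ociad2, Adig, Angptl4 and Prodh lie below it and Rftn1 lies above it.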

How the data were processed

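Each library was made from heart apex RNA that was depleted of ribosomal RNA and prepared as a stranded total RNA library, sequenced as 100 bp pairs, per the labels' protocols. The authors deposited FPKM in 1 table per genotype, with a value per gene and library and no pooling of replicates. The submitters' processing notes name GSNAP, HTSeq and build mm10, while tool versions and roles, annotation and the program behind FPKM were not given in the sources used. Of 23352 gene entries per table, 27 had been turned into dates and are not named.

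From these values log2(FPKM + 1) was computed, keeping genes that averaged 1 FPKM or more across 36 libraries, and Klf15 in addition. Fits used limma 3.58.1 in R 4.3.3 with 12 group means, a variance trend and robust moderation, and Benjamini-Hochberg adjustment over all genes. The code was tested on simulated data, with noise drawn independently for each gene and library. They held no difference between library sets, so that test does not measure the error rate of the calls. Depth was estimated from the step of 1 fragment in low values and GENCODE M21 exon lengths, so it holds only as far as the authors' lengths were like these. With 3 libraries against 3 an exact permutation test of a single gene cannot go below a two-sided p of 0.1. Coordinates are those of GENCODE M21 on GRCm38, the build also called mm10.

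Members and lists were chosen with earlier results of these data known. Named genes were the 15 lowest and 12 highest folds among calls, up to 5 called members per gene list by smallest adjusted p, tested branched-chain and clock genes, up to 2 called markers per marker list, the 6 smallest adjusted p each way in the contrast of 4 am with the other times, and Klf15. Genes outside this rule are given for their role beside a named gene or are said to be chosen after their values were seen; genes given as not called, such as Cd36, Cpt1b, Oxct1, Ppara, Ppargc1a and Nppa, are of the former kind. In all, 19 alternative settings were run, among them other pseudocounts (0.1 and 0.5), filters, scalings, replicate blocks and omissions of libraries. Date-like entries and the other times' own results were left out of the text. Values of a few genes that the rule covers are not reported here.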

Additional observations from a re-analysis of the deposited data

How the results depend on the processing

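Of the 120 genes called at 4 am, none changed direction under any of the 19 alternatives, and 49 were called in every alternative that tested them (48 lower and Erdr1). Fitting only the 6 libraries of 4 am gave 57 calls, 2 higher and 55 lower, with 54 of the 120 among them, where fewer libraries estimate the spread. Adding a library-set term gave 231 calls, 53 higher and 178 lower, and 1 gene for 4 am against the other times. Its sets were defined from these data. The share of higher calls was 14.2% as reported, 22.9% with that term and 3.5% with 6 libraries, and rescaling moved it by less than 10 percentage points, to 15.4% (median-ratio) and 17.6% (quantile). Leaving out 1 library of 4 am gave 86 to 112 calls, 77 to 101 lower and 5 to 12 higher, with the lowest count of higher calls without control replicate 3. Replicate numbers 3 and 4 are shared by the genotypes, and deviations of same-numbered libraries correlated at 0.25 and 0.20, but with 2 such pairs and no label that ties them the numbers were not taken as a pairing. With the replicate block as a fixed term 162 genes were called, 30 higher and 132 lower, and as a random series 116, 16 higher and 100 lower. Among the 59 called genes named by the rule, 163 of 1109 values in alternatives missed the threshold, and 20 values of the 36 named genes that were not called passed it. Depth limits genes of a few FPKM: for Cth 1 fragment was worth about 0.14 to 0.23 FPKM and for Adig 0.41 to 0.66.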

Other observations

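Some enzymes outside the lists were called as well and are named here after their values were seen. Aldh2, which clears acetaldehyde and lipid aldehydes, was at 44.1, 33.0 and 42.0 FPKM in cK15 and 116, 90.4 and 106 FPKM in control (log2 fold change -1.37, SE 0.13; limma adjusted p = 1.89e-08). The selenium-binding protein Selenbp1 was at 46.5, 61.1 and 53.7 FPKM against 138, 171 and 167 FPKM (-1.55, SE 0.12). Pxmp2, a channel of the peroxisomal membrane, was at 26.9, 29.3 and 29.0 FPKM against 110, 81.0 and 93.7 FPKM (-1.70, SE 0.16). Acy1, which frees amino acids from their acetylated forms, was at 4.41, 5.98 and 6.00 FPKM against 16.6, 15.1 and 20.7 FPKM (-1.52, SE 0.16). In all 4 genes the genotypes did not overlap, and none of these calls was lost in any alternative.

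Pttg1 (securin) and Cyfip2 (an actin regulator) had large differences that missed the threshold, and cK15 replicate 1 stood between the genotypes in both. Pttg1 was at 123, 7.90 and 8.04 FPKM in cK15 replicates 1, 3 and 4 and at 227 to 262 FPKM in control (log2 fold change -3.50, SE 0.95; limma adjusted p 0.0811). Cyfip2 was at 30.3, 4.03 and 4.31 FPKM against 49.2 to 63.9 FPKM (-2.57, SE 0.71; limma adjusted p 0.0873). Without cK15 replicate 1 both passed (limma adjusted p 0.00415 and 0.00783), and with another of the 6 libraries left out neither did (0.2 to 0.397 for Pttg1 and 0.21 to 0.396 for Cyfip2). Without the 12 libraries that stood apart, cK15 replicate 1 among them, Pttg1 passed (limma adjusted p 0.0455) and Cyfip2 did not (0.108). Fndc9, which lies inside Cyfip2 on the opposite strand, had the same order of libraries at 3.35, 0.90 and 0.32 FPKM in cK15 against 12.0, 6.73 and 6.45 FPKM in control. Fndc9 passed (limma adjusted p 0.045) and was lost without any 1 library other than cK15 replicate 1 (up to 0.308). Ptprn2, of secretory vesicles, was at 5.16, 5.53 and 4.96 FPKM in cK15 and listed at 0 in all 3 control libraries, yet missed the threshold (limma adjusted p 0.0781).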
